A study of Homo sapiens with 6 samples.

Results

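The genes described here are RBP4, which encodes the plasma carrier of vitamin A, and 9 other genes that carry, store, oxidise or sense retinoids: TTR, STRA6, LRAT, RDH10, RDH11, ALDH1A1, CRABP2, RARA and RARB. They were taken by symbol from a table of 50868 genes. The group was chosen by the counts of these libraries: DESeq2, a count method, called RBP4 changed with an adjusted p of 0.00803, whereas the other 9 genes were picked for their place in the pathway. Of the 10 genes, 9 had at least 1 count and 8 passed the filter on low counts, among 15055 genes that did. The RBP4 difference is therefore a description and no finding, and the rule names no value of the other 9 genes.

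RNA sequencing measured gene expression in Huh7 cells, an established human hepatoma line. In 3 libraries the cells had received a plasmid that overexpresses hsa_circ_0098181, a circular RNA spliced from exons of SOX5, and in the other 3 the control plasmid. Both groups were transfected with Lipofectamine 2000, a cationic lipid reagent, and total RNA was taken after 48 h. The study asks what this circular RNA changes in hepatoma cells, with the microRNA miR-18a-3p as its proposed partner. All 6 libraries come from a single cell line after transient transfection. The text of the sources used here gives no share of cells that took up plasmid. For Huh7 the study reports significantly more hsa_circ_0098181 after plasmid transfection. Nothing says that the numbered replicates were separate cultures, so the p-values may measure technical spread alone.

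Hepatocytes are the main source of circulating retinol-binding protein, the RBP4 product, which leaves the cell loaded with retinol and travels in plasma bound to transthyretin, the TTR product. Inside cells retinol is either esterified for storage or oxidised to retinal and then irreversibly to retinoic acid. Retinoic acid is the ligand of the nuclear retinoic acid receptors, which bind paired copies of a short motif in DNA and act with retinoid X receptors as partners. In liver the esters are stored mostly in stellate cells rather than in hepatocytes.

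The mature miR-18a-3p from RefSeq (GRCh38.p14, chr13:91350797-91350819, plus strand) is shown because it is the proposed partner of the circular RNA, with its seed, bases 2 to 8, in capitals.
hsa-miR-18a-3p: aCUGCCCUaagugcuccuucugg
The complementary site, AGGGCAG, was searched in the 3′ UTR of 1 transcript per gene, that with the longest coding sequence. It was found in 0 of the 10 genes, whose 3′ UTRs searched had 105 to 3982 bases. Among 12394 tested genes with an annotated 3′ UTR it was found in 2034 (16.4%). The letters are absent from these windows, and nothing follows from that about the microRNA. Retinoic acid response elements were searched as direct repeats of any pair of the motifs AGGTCA, its variant AGTTCA, the form GGGTCA or the form GGTTCA, spaced by 1, 2 or 5 bases, on both strands of RefSeq promoter windows (250 bases before to 50 after the start). There were 19 windows for 8 of the 10 genes, and none for TTR or RDH10. Among 35116 windows of all genes the share with a match was 0.131% for spacing 1, 0.0399% for spacing 2 and 0.0883% for spacing 5. The single match among the retinoid genes lay in RARB, a receptor gene well known to answer to its own ligand, on the plus strand of GRCh38.p14 at chr3:25428210-25428226, with its first base 53 bases before the start site. It is shown with the motifs in capitals.
RARB element, spacing 5: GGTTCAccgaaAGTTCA
A match of letters is a description and not evidence of a bound site.

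Libraries held 11130902 to 14138262 counts. SOX5, whose exons the plasmid carries, had 24906 to 33577 counts with the overexpression plasmid and 380 to 453 with the control plasmid, so the labels held. Control library 1 stood apart from the rest, with 9.29% of its counts on mitochondrial genes against 6.32% to 7.04% in the other 5, and with chi-square values per degree of freedom of 19.1 to 31.2 in its pairs against 9.64 to 17.1 in the other pairs. All 8 hepatocyte markers were expressed, from AFP at 10801 to 13276 counts scaled to library size (CPM, the usual depth-scaled unit) down to HNF4A at 76.2 to 197 CPM, so the label of a liver cell line held. The 8 markers of stellate cells or fibroblasts summed to 23.1 to 26.8 CPM with overexpression and to 23.8 to 26.1 CPM in controls, with 4 of 8 above the filter. The 4 leukocyte markers summed to 491 to 532 CPM with overexpression and to 438 to 474 CPM in controls, nearly all of it LYZ (424 to 521 CPM), while CD163 had at most 1 count in a library. Of the 3 endothelial markers PECAM1 stood at 46.9 to 59.1 CPM, CDH5 had 0 counts in all libraries and VWF had 1 count in 1 library. These are bulk levels in cultures of a single cell line, so the markers do not count cells of other types. In bulk RNA, how many cells express a gene and how much RNA each holds cannot be told apart.

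The 10 genes together held 0.225% to 0.259% of a library's counts, and they spanned a wide range of levels. Per kilobase of merged exon and scaled to library size (RPKM, mean of 6 libraries), RBP4 led with a level of 521, followed by ALDH1A1 at 342 and TTR at 229. RDH11 stood at 25.4, RDH10 at 5.76 and RARA at 3.31. RARB at 1.27 and CRABP2 at 1.006 came next, LRAT was at 0.008 and STRA6 at 0. The liver carrier genes RBP4 and TTR and the retinal dehydrogenase ALDH1A1 thus lay above the 99th percentile of the genes tested (99.7, 99.1 and 99.4), RDH11 at percentile 87.6 and RDH10 at 54.5. The receptors and CRABP2 lay lower, RARA at 40.7, RARB at 21.2 and CRABP2 at 17.7. In this order the ranges over the 6 libraries overlapped between neighbours for RARB and CRABP2 and for LRAT and STRA6, and for no other neighbours. The authors' FPKM values gave the same order. They imply a length of 2533 bases for RBP4, against 1449 used here, if the authors scaled by the summed counts of each library.

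**Figure D1:**
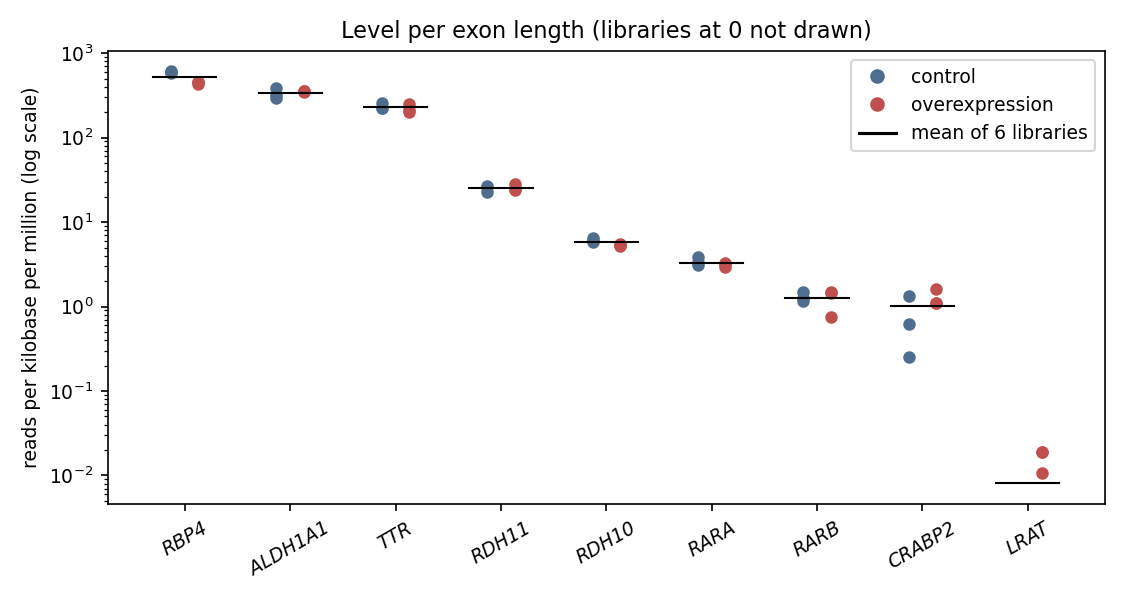
Level of each gene in RPKM (y axis, log scale) in the 3 control (blue) and 3 overexpression (red) libraries, with the mean of the 6 as a line and values of 0 not drawn. RBP4, ALDH1A1 and TTR lie at 521, 342 and 229, all 3 above RDH11 at 25.4, and STRA6 (0 in every library) is not shown.

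Of the genes for carriage and uptake, RBP4 was lower in every overexpression library than in any control, TTR overlapped between the groups and STRA6 was not detected. RBP4 (ENSG00000138207, chr10:93591687-93601744, minus strand, GRCh38) had 9381, 8692 and 8077 counts in overexpression libraries 1 to 3 and 9445, 10364 and 10170 in control libraries 1 to 3, the order kept for all values below. After scaling for depth this was 664, 620 and 653 CPM against 872, 883 and 837 CPM. All 3 overexpression libraries lay below all 3 controls, and the spread within groups was narrow, with a coefficient of variation of 3.52% and 2.77%. The means were 646 ± 22.7 CPM and 864 ± 23.9 CPM (SD, n = 3), a fold of 0.748 and a log2 fold change of -0.42 (SE 0.078, 95% interval -0.60 to -0.24).

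The 2 count methods gave RBP4 the same estimate and opposite calls. DESeq2 put it at -0.42 (SE 0.093) with the adjusted p of 0.00803 that led to its choice, one of 27 calls among 19194 genes (0.141%). The quasi-likelihood test of edgeR, adjusted after Benjamini and Hochberg, gave a p of 0.506, at rank 17 by p, and called 6 of 15055 genes (0.0399%), 2 of them lower with overexpression (0.0133%). Leaving out 1 library at a time kept the edgeR estimate between -0.44 and -0.39 with adjusted p from 0.395 to 0.953. The DESeq2 call was not kept in every fit without 1 library. It held without overexpression library 1 (adjusted p 0.0181), control library 1 (0.00122) or control library 3 (0.0116). It was lost without overexpression library 2 (0.149), overexpression library 3 (0.0809) or control library 2 (0.0778). Each of these fits has fewer libraries than the full fit, and the reason for the loss was not tested. Without control library 1, which stood apart, the estimate was -0.41 by either method. Values just inside and outside the threshold do not exist among the 10 genes, since the next adjusted p by DESeq2 was 0.9998.

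**Figure D2:**
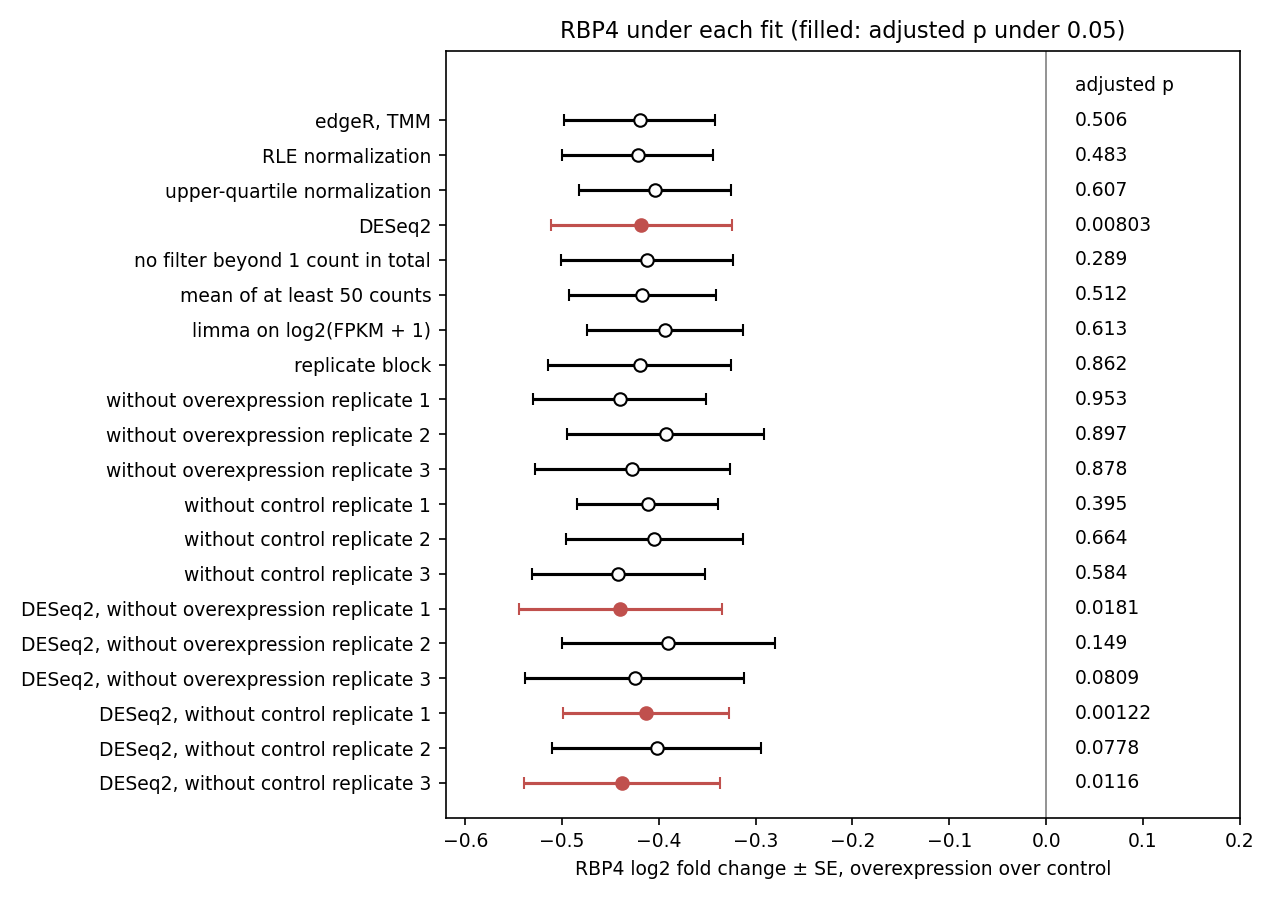
RBP4 log2 fold change with its SE (x axis, overexpression over control) under each fit (rows), with the adjusted p at the right and filled red points where it is under 0.05. Every estimate lies between -0.44 and -0.39, and 4 of the 20 fits, all of them DESeq2, pass the threshold.

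No other gene of the table shared exon bases with RBP4. The only gene whose span overlaps it, FFAR4 on the opposite strand, had 10 to 16 counts, and 0 of the 1413 stretches of 31 bases in RBP4 transcripts occurred in another gene. Among the other tested retinoid genes the share of such stretches found elsewhere was largest for RARA (15.6%), RDH10 (7.12%) and RDH11 (6.93%). The genes whose library pattern was most like RBP4 (root mean square difference of centred log2 CPM over the 6 libraries) were AIDA at 0.0385, BCL2L13 at 0.0676, NBN at 0.0705, TOX4 at 0.0727 and C12orf66 at 0.0765. Their log2 fold changes were -0.37, -0.30, -0.30, -0.49 and -0.37, and none of them passed the edgeR threshold (lowest adjusted p 0.558). These genes were picked for their likeness to RBP4 in the same libraries, so their lower values follow from the selection.

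TTR (ENSG00000118271, chr18:31591726-31599021, plus strand), the plasma partner of RBP4 and a carrier of thyroxine, had 460, 441 and 549 CPM against 484, 564 and 486 CPM. The groups overlapped, with overexpression library 3 above 2 of the 3 controls. The means of 484 ± 57.9 and 511 ± 45.4 CPM (SD, n = 3) gave a log2 fold change of -0.081 (SE 0.11, 95% interval -0.34 to 0.18, edgeR adjusted p 0.884). The interval leaves room for a difference in either direction, and the estimate ran from -0.18 without overexpression library 3 to -0.0060 without control library 2. Within a library TTR was 69.3%, 71.1% and 84.2% of RBP4 in CPM against 55.5%, 63.9% and 58.1%. The ratio was higher in every overexpression library, with log2 means of -0.42 ± 0.15 and -0.76 ± 0.10 (SD, n = 3) and a difference of 0.34. It contains RBP4, which was chosen for its change, and is given without a test.

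STRA6 (ENSG00000137868, chr15:74179466-74212267, minus strand), the membrane receptor that takes up retinol from RBP4, had 0 counts in all 6 libraries. A count of 0 allows up to 3 counts, which is 0.212 to 0.277 CPM at these depths and covers counting error only, as for all limits here. STRA6 was thus not detectable at this depth and no comparison was possible.

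**Figure D3:**
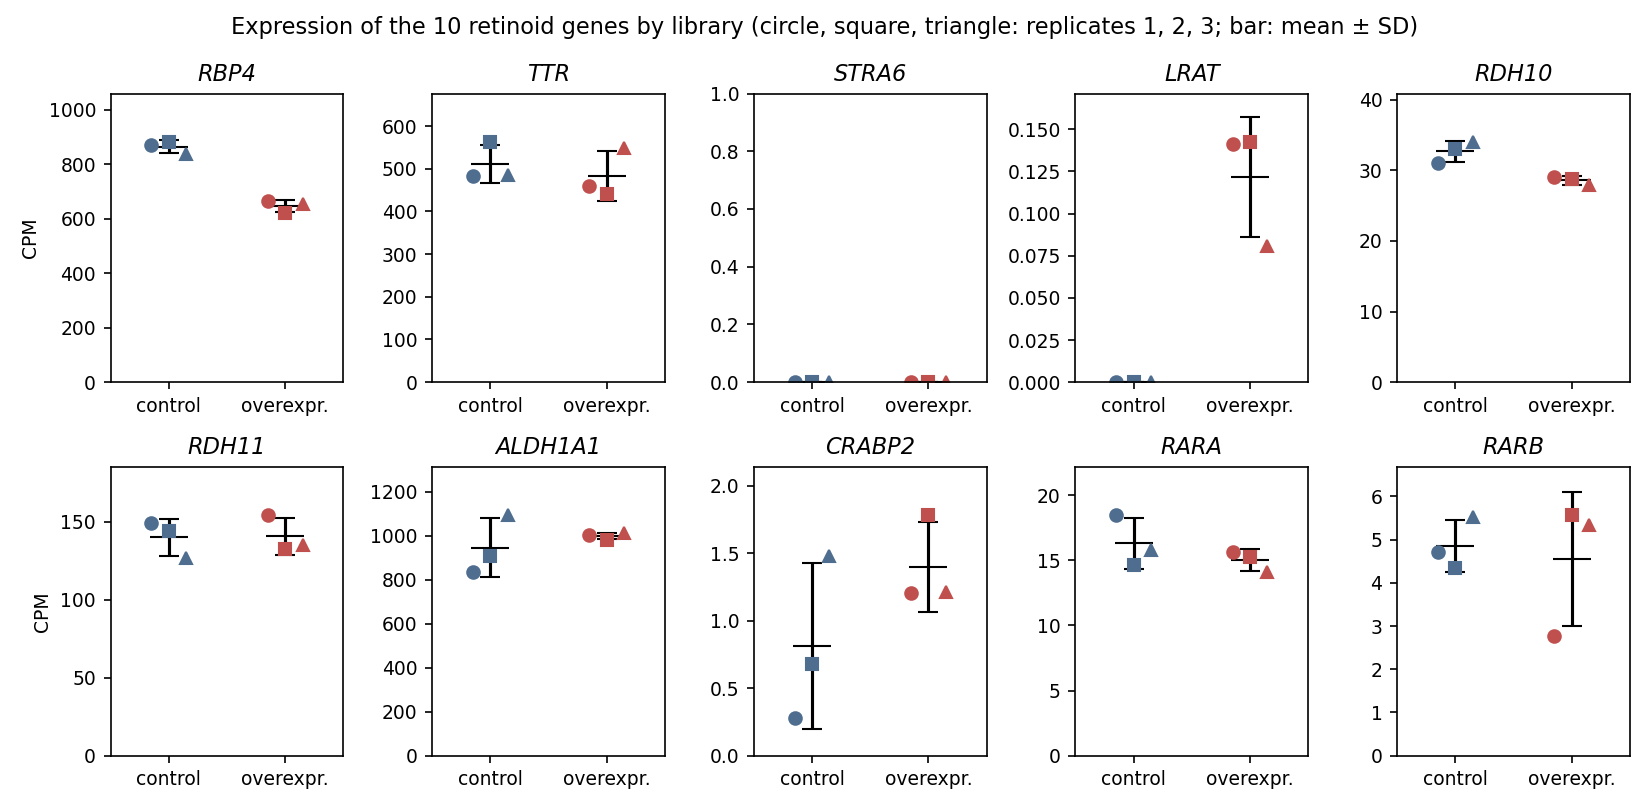
CPM (y axes from 0, each with its own scale) of the 10 genes in the 3 control (blue) and 3 overexpression (red) libraries, with replicates 1 to 3 as circle, square and triangle and bars for the mean ± SD. Among the 8 genes tested the groups lie apart in RBP4 (620 to 664 against 837 to 883), chosen for its change. They also lie apart in RDH10 (27.9 to 29.1 against 31.1 to 34.1) and overlap in the other 6. Over all 15055 genes tested they lie apart in 12.9%, and in 6.5% in this direction.

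Of the genes for storage and oxidation, LRAT was barely counted, RDH10 was lower in every overexpression library without passing the test, and RDH11 and ALDH1A1 overlapped between the groups. LRAT (ENSG00000121207, chr4:154626945-154753118, plus strand), which esterifies retinol for storage and is typical of stellate cells, had 2, 2 and 1 counts against 0, 0 and 0. Both groups lay under the limit of 3 counts in each library, so no fold is given. The storage enzyme was therefore near or below detection in these hepatoma cells whichever plasmid they had received.

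RDH10 (ENSG00000121039, chr8:73294612-73325281, plus strand), a major enzyme of the retinol to retinal step, had 29.1, 28.8 and 27.9 CPM against 31.1, 33.0 and 34.1 CPM. The groups did not overlap, as was the case for 12.9% of the 15055 genes tested, 6.5% in this direction. Among the 8 retinoid genes this held for 2, RDH10 and RBP4, of which RBP4 was chosen for its change. The means were 28.6 ± 0.63 and 32.7 ± 1.499 CPM (SD, n = 3), with a log2 fold change of -0.19 (SE 0.098, 95% interval -0.42 to 0.029). This did not pass edgeR's test (adjusted p 0.797). RPL7, a ribosomal protein gene with 871 to 1683 counts, lies opposite RDH10 without shared exon bases, and the antisense RDH10-AS1 had 0 counts. How strand was treated in counting was not given in the sources used here.

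RDH11 (ENSG00000072042, chr14:67676801-67695814, minus strand), which mainly reduces retinal back to retinol, had 154, 133 and 135 CPM against 149, 144 and 127 CPM. Its values interleaved, with means (SD, n = 3) of 141 ± 11.9 and 140 ± 11.97 CPM. Its log2 fold change was 0.0066 (SE 0.10, 95% interval -0.23 to 0.24, edgeR adjusted p 0.992), and its sign turned without overexpression library 1 (-0.065) or control library 3 (-0.061). RDH11 shares 346 exon bases with RP11-1012A1.4 on the same strand, a gene with 1 to 3 counts.

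ALDH1A1 (ENSG00000165092, chr9:72900662-73080442, minus strand), which oxidises retinal to retinoic acid, had 1005, 983 and 1011 CPM against 837, 908 and 1094 CPM. The overexpression libraries lay close together (coefficient of variation 1.52%) inside the wider range of the controls (14.0%). Means were 999.6 ± 15.2 and 947 ± 133 CPM (SD, n = 3), for a log2 fold change of 0.078 (SE 0.11, 95% interval -0.17 to 0.33, edgeR adjusted p 0.884). The estimate rested on the controls, at -0.00096 without control library 1 and 0.20 without control library 3.

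Among the genes for binding and sensing, CRABP2, which delivers retinoic acid to its nuclear receptors, was the scarcest that could be tested. CRABP2 (ENSG00000143320, chr1:156699606-156705816, minus strand) had 17, 25 and 15 counts against 3, 8 and 18, or 1.203, 1.78 and 1.21 CPM against 0.277, 0.681 and 1.48 CPM. Control libraries 1 and 2 were the lowest, and control library 3 lay above 2 of the overexpression libraries. The log2 fold change of 0.76 was the largest in size among the 8 genes tested and also the least certain (SE 0.51, 95% interval -0.40 to 1.91, edgeR adjusted p 0.797). It was 0.37 without control library 1 and 1.51 without control library 3.

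RARA (ENSG00000131759, chr17:40309192-40357643, plus strand) encodes the retinoic acid receptor found in most tissues and had 15.6, 15.3 and 14.1 CPM against 18.5, 14.6 and 15.8 CPM. The groups overlapped, with control library 1 the highest. Means of 15.0 ± 0.83 and 16.3 ± 1.95 CPM (SD, n = 3) gave a log2 fold change of -0.12 (SE 0.13, 95% interval -0.42 to 0.18, edgeR adjusted p 0.855), which ran from -0.19 without control library 2 to -0.020 without control library 1. RARA shares 556 exon bases with the antisense RARA-AS1, which had 0 to 6 counts.

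RARB (ENSG00000077092, chr3:25174332-25597932, plus strand), the receptor whose promoter window held the element printed above, had 39, 78 and 66 counts against 51, 51 and 67, or 2.76, 5.57 and 5.33 CPM against 4.71, 4.34 and 5.51 CPM. Overexpression library 1 was lowest and the other 5 lay close together. The log2 fold change was -0.096 (SE 0.28, 95% interval -0.75 to 0.55, edgeR adjusted p 0.949), and it turned to 0.17 without overexpression library 1 and to 0.0067 without control library 3. The interval is too wide to tell a moderate rise from a moderate fall. RARB shares 28 exon bases with TOP2B on the opposite strand, a gene with 2967 to 4072 counts.

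**Figure D4:**
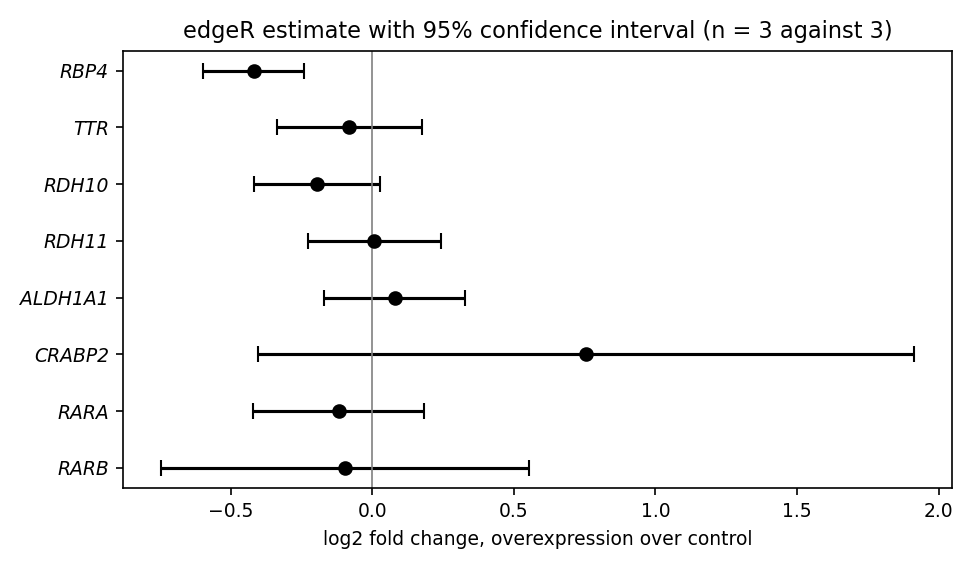
edgeR log2 fold change (x axis, overexpression over control) with its 95% interval for the 8 genes tested (rows), 3 libraries against 3. RBP4, chosen for its change, is the only gene whose interval (-0.60 to -0.24) does not reach 0, and CRABP2 has the widest (-0.40 to 1.91).

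Among the 8 tested genes estimates were higher in 3 and lower in 5, with a median log2 fold change of -0.088 against 0.0023 over all 15055 genes. RBP4, chosen for its change, is 1 of the 5 lower and is part of the median, so these values are a description. edgeR called 0 of the 8, and 1 of them, RBP4, had an unadjusted p under 0.05, as did 5.5% of all genes tested. DESeq2 called 1, again RBP4, by the call that chose the group, and it called 0.141% of 19194 genes.

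The wider pathway was then described by 70 further genes in 8 lists, of which 15 had 0 counts in every library and 39 passed the filter. Estimates were higher in 19 and lower in 20, with a median log2 fold change of -0.011. edgeR called 0 of the 39 (lowest adjusted p 0.797), where 0.0399% of all genes were called, and DESeq2 called 0. An unadjusted p under 0.05 was found in 4 (10.3%, against 5.5% of all genes) and groups that did not overlap in 6 (15.4%, against 12.9%). Among the 6 were DGAT1, AOX1, NCOA3, NRIP1 and RARRES1, and among the 4 were DGAT1, NRIP1 and RARRES1.

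Of 7 intracellular binding proteins 4 were tested, 3 with higher and 1 with lower estimates and none called. FABP5, a fatty acid carrier that also binds retinoic acid, was the highest per length at 16.8 RPKM, with a log2 fold change of 0.25 (SE 0.14). RBP5, another carrier of retinol inside cells, had the smallest estimate at -0.011 (SE 0.19), and CRABP1 and RLBP1 had 0 counts throughout.

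For ester storage and hydrolysis 5 of 9 genes were tested, with 3 higher and 2 lower estimates. DGAT1, which makes triglycerides and can also esterify retinol, was highest per length and had the largest estimate of the list. It stood at 69.9, 58.4 and 50.7 CPM against 50.1, 47.5 and 47.6 CPM, a log2 fold change of 0.30 (SE 0.13, edgeR adjusted p 0.797) with overexpression library 3 just above the controls. CEL, a secreted ester hydrolase, had the smallest at -0.31 (SE 0.31).

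Among 5 genes of carotenoid and retinol conversion 3 were tested. SCARB1, a lipoprotein and carotenoid receptor, had 256, 261 and 248 CPM against 257, 249 and 256 CPM, values that interleaved, and a log2 fold change of 0.0068 (SE 0.076). BCO2, which cleaves carotenoids, was scarce at 0.404 to 1.64 CPM and had an estimate of -0.32 (SE 0.56).

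Of 18 enzymes that interconvert retinol and retinal 8 were tested, 5 with higher and 3 with lower estimates. AKR1B10, a retinal reductase, was highest per length at 28.4 RPKM and had the lowest estimate, -0.18 (SE 0.18), with control library 3 at 68.2 CPM and the other 5 libraries at 42.3 to 52.0 CPM. RDH5 had the largest at 0.33 (SE 0.28). The classical alcohol dehydrogenase ADH1B, abundant in liver, had at most 0.461 CPM here.

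For the step from retinal to retinoic acid 3 of 4 further genes were tested. AOX1, an aldehyde oxidase, had 5.31, 6.42 and 4.93 CPM against 4.43, 4.51 and 4.11 CPM, groups that did not overlap, and a log2 fold change of 0.35 (SE 0.19, edgeR adjusted p 0.797). ALDH8A1 was at -0.38 (SE 0.42).

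Of 5 genes for the breakdown of retinoic acid 2 were tested, and CYP26B1, a retinoic acid hydroxylase, was the highest per length at 5.01 RPKM. CYP26B1 had 31.6, 35.8 and 25.9 CPM against 14.7, 9.37 and 33.4 CPM. Control library 3 lay within the range of the overexpression libraries and the other 2 controls lay well below them. The log2 fold change was 0.70 (SE 0.39, edgeR adjusted p 0.797), and it ranged from 0.37 without control library 2 to 1.38 without control library 3. CYP2C8 was at -0.31 (SE 0.38).

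Of 10 further receptors and coregulators 9 were tested, with 3 higher and 6 lower estimates and a median of -0.19. NCOA2, a coactivator, was highest per length with 187, 208 and 218 CPM against 263, 219 and 216 CPM and a log2 fold change of -0.19 (SE 0.11). NRIP1, a corepressor induced by retinoic acid, had the lowest at -0.42 (SE 0.18, edgeR adjusted p 0.797), from 35.2, 55.9 and 59.1 CPM against 67.0, 63.5 and 70.3 CPM, groups that did not overlap. RXRB, a partner receptor, was at 0.11 (SE 0.14) and RXRG had 0 counts throughout. Control library 1 was the highest of the 6 libraries in the summed level of this list, at 979 CPM against 672 to 818 CPM, and its part in the result was not tested.

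Of 12 genes known to respond to retinoic acid 5 were tested, 2 with higher and 3 with lower estimates. RARRES1, named for its induction by retinoids, had 21, 24 and 22 counts against 9, 13 and 11 and a log2 fold change of 0.80 (SE 0.28, edgeR adjusted p 0.797). Its groups did not overlap. GPRC5A, also induced by retinoic acid, had the lowest estimate at -0.70 (SE 0.32), with control library 2 among the overexpression libraries. HOXB1, CEBPE and CDX1 had 0 counts throughout.

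**Figure D5:**
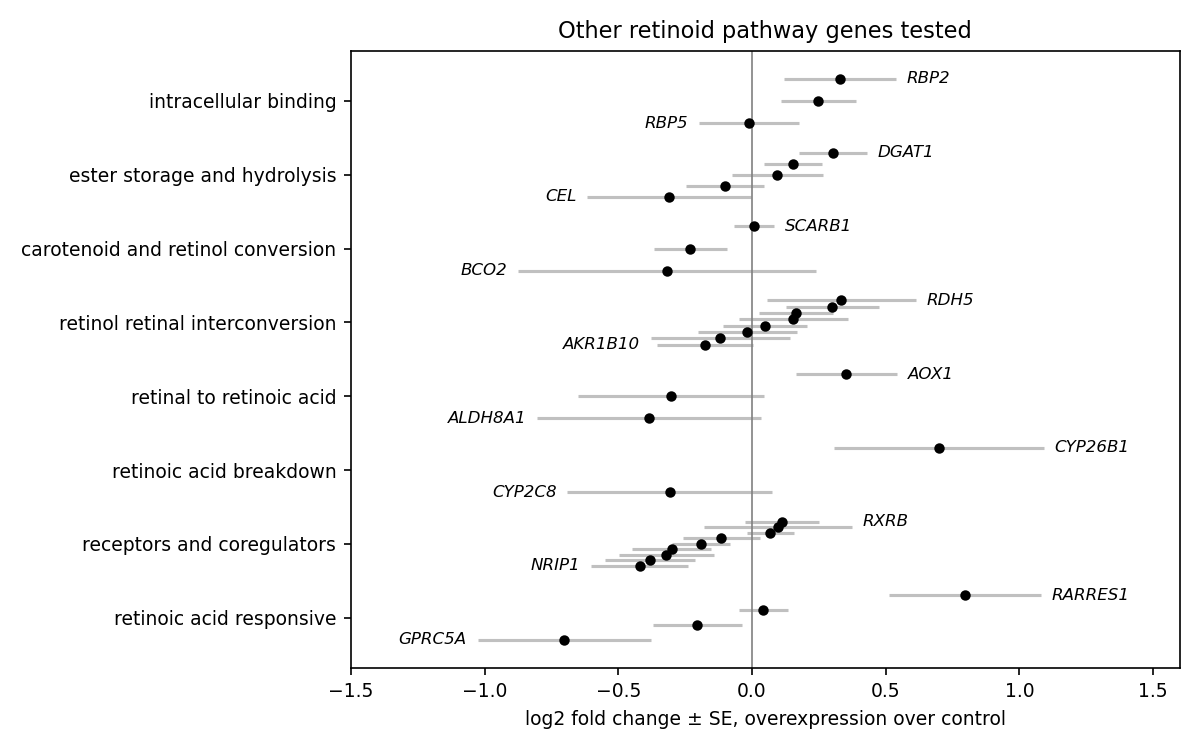
edgeR log2 fold change with its SE (x axis, overexpression over control) for the tested genes of the wider pathway whose values are reported here, by list (rows), with the highest and lowest drawn in each list named. Estimates lie on both sides of 0, from -0.70 (GPRC5A) to 0.80 (RARRES1), and 0 of the 39 passed an adjusted p of 0.05.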

How the data were processed

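Total RNA of 6 Huh7 libraries was sequenced, and groups and replicate numbers were read from the sample titles. The authors deposited whole-number read counts per gene, not normalized, and FPKM values, a unit scaled by gene length and library total. The lengths and totals behind these FPKM values are not known here. The submitters' processing notes name TopHat2 2.0.9 and hg38. The counting tool, its strand setting and the annotation release were not given in the sources used here. GENCODE 29 (GRCh38) held 98.5% of the table's IDs, and 94.8% of these had identical ends. TTR and SOX5 have other ends there, so the table's ends were printed. Exon lengths were merged GENCODE 29 exons within them.

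Counts were tested with edgeR 4.0.16 under R 4.3.3 (quasi-likelihood F test on the group, two-sided, TMM scaling, low counts removed by filterByExpr at 10, Benjamini-Hochberg over 15055 genes). SEs and 95% intervals were derived from the F statistic, and CPM used TMM library sizes. The biological coefficient of variation was 16.1%. The fits were tested on simulated counts, in which the changes put in were all larger in size than the RBP4 estimate. That test therefore says nothing about calls at the size of the RBP4 estimate. Alternatives were RLE and upper-quartile scaling, DESeq2 1.42.0, other filters (1 count in total, a mean of 50 counts), limma 3.58.1 with log2(FPKM + 1) as input (1 FPKM or more in 3 or more libraries), each library left out and a replicate block. An exact permutation test of 3 against 3 libraries cannot go below p = 0.1, and none is given.

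All 10 genes were named, and in each wider list the gene highest per length and those with the largest and smallest estimate. The 5 genes most like RBP4 were taken among those with a mean of at least 10 CPM. In the marker lists the highest and lowest were named. ADH1B, NCOA3, FFAR4, RPL7, RDH10-AS1, RARA-AS1, TOP2B, VWF and genes at 0 were named after their values were seen. The members, lists and rules were chosen with earlier results of these data known. Values of 2 genes that met the naming rule are left out of the text and plots, and counts of genes still include them. AKR1C3 had 2 IDs, of which ENSG00000196139 was used.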

Additional observations from a re-analysis of the deposited data

How the results depend on the processing

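DESeq2, at the same RBP4 estimate (-0.42), passed the threshold that edgeR missed, and so called 1 of the 10 retinoid genes against 0. This is the call that chose the group. DESeq2 called 27 of 19194 genes (0.141%) and edgeR 6 of 15055 (0.0399%). Added after the data were seen, DESeq2 without 1 library ran from -0.44 to -0.39 and passed in 3 of 6 fits (-0.44, -0.41 and -0.44). Over all genes edgeR called 4 higher and 2 lower, DESeq2 8 and 19, and the fits without 1 library 1 to 7 and 2 to 9. Without 1 library RDH11 ran from -0.065 to 0.057, ALDH1A1 from -0.00096 to 0.20 and RARB from -0.27 to 0.17, each turning its sign in 1 or 2 fits, and TTR (-0.18 to -0.0060), RDH10 (-0.23 to -0.16), CRABP2 (0.37 to 1.51) and RARA (-0.19 to -0.020) kept their sign there and under the other alternatives run. RDH11 turned at -0.065 and -0.061, ALDH1A1 at -0.00096 and RARB at 0.17 and 0.0067. The median of the wider pathway (-0.011) was -0.10 under DESeq2, -0.0945 without the filter, 0.0455 at a mean of at least 50 counts and 0.0421 under limma on FPKM, where other numbers of genes were tested, and -0.0388 to 0.012 without 1 library. The correlations of same-numbered deviations were -0.036, -0.023 and -0.031, which show no sign of pairing by replicate number. They cannot exclude pairing, since deviations of differently numbered libraries were not compared. With the replicate block RBP4 stayed at -0.42 (edgeR adjusted p 0.862) and the calls higher were 2. The TTR to RBP4 difference ran from 0.25 to 0.39. The alternatives for CYP26B1 were also chosen after its value was seen. CRABP2 gave no value at a mean of 50 counts or under limma, STRA6 had no counts to fit, no fold is given for LRAT under any alternative because both groups lay under 3 counts, and the filter does not apply to the ratio. The causes of these differences between fits were not tested. Genes under about 2 CPM had SEs of 0.26 or more.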
